A study of Mus musculus with 192 samples.

Results

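Single mouse embryonic fibroblasts were ranked by how many of 12 proliferation genes they listed, and the cells at both ends of the ranking were compared: 58 high-scoring and 58 low-scoring cells, together 116 of the 192 cells of the series. The cells were chosen by measured peaks, and what chose them is not a finding. The score was the number of genes among Mki67, Top2a, Cdk1, Ccnb1, Ccnb2, Ccna2, Cdc20, Birc5, Ube2c, Plk1, Rrm2 and Tyms with a called start-site peak on the gene's strand within 1000 bp of its annotated start. Cells with under 10% of the median total tags were left out (4 naïve, 11 pretreated), which kept 92 naïve and 85 pretreated cells. Within each group the top 30 and bottom 30 naïve cells, and the top 28 and bottom 28 pretreated cells, were taken. The other 32 naïve and 29 pretreated cells lay between them.

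All cells were C57BL/6 fibroblasts grown in DMEM with fetal bovine serum and exposed for 1 h to 100 U/ml of interferon-beta, a cytokine that cells secrete on virus infection. The labels call 96 cells naïve and 96 pretreated, and do not say what the pretreatment was. Cells without interferon were not part of the comparison. The assay captures where each polyadenylated transcript begins, and a read of such a start is called a tag. No animal, culture or plate is named, so each group is 1 sample and cells are not replicates of a condition: differences between high- and low-scoring cells are described here without a test, and the intervals given cover counting error only. Tags are reads, not molecules.

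A dividing cell copies its DNA in S phase and separates the copies in mitosis. Genes for DNA synthesis are switched on by E2F factors at the start of S phase, and genes for the spindle, the kinetochore and chromosome condensation later, by complexes that bind the CHR element and CCAAT boxes close to the start site. Cells that leave the cycle keep both groups off. Fibroblasts in culture divide without synchrony, so any moment catches cells in all phases.

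The promoters of 5 score genes that were listed in more high-scoring than low-scoring cells, and of 1 DNA-synthesis gene, Tyms, show where these elements lie. They are RefSeq promoters on build GRCm38.p6, from 120 bases before to 10 bases after the annotated start: Cdk1 chr10:69352903-69353032 (- strand), Top2a chr11:99024180-99024309 (- strand), Ccnb2 chr9:70421545-70421674 (- strand), Cdc20 chr4:118437334-118437463 (- strand), Ube2c chr2:164769809-164769938 (+ strand) and Tyms chr5:30073616-30073745 (- strand). Capitals mark the CHR letters TTTGAA and the CCAAT box CCAAT, on either strand (TTCAAA and ATTGG on the other).
Cdk1: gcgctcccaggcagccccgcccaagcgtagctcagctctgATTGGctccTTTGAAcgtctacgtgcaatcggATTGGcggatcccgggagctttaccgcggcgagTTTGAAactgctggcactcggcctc
Top2a: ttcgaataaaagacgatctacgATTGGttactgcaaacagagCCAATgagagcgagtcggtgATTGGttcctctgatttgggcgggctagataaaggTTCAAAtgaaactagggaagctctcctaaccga
Ccnb2: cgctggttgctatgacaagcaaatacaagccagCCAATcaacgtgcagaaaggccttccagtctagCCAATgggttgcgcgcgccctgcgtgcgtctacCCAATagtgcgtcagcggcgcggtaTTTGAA
Cdc20: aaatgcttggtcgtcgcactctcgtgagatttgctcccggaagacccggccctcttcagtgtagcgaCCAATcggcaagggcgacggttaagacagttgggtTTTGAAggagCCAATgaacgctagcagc
Ube2c: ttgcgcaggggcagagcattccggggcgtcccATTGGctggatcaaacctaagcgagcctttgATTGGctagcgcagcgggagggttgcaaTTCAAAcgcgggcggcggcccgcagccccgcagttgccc
Tyms: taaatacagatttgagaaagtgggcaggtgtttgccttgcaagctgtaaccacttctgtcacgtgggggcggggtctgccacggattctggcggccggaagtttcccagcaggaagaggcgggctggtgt
CHR letters began 71 and 15 bases upstream of the start in Cdk1, 18 in Cdc20, 23 in Top2a and 29 in Ube2c, and 4 bases downstream of it in Ccnb2. The Tyms promoter held neither element. Over 300-base RefSeq promoter windows, TTTGAA was in 7 of the 11 score-gene promoters matched, and in 44 of 67 promoters of a 71-gene mitosis list that holds no score gene (65.7%). It was in 17.9% of all 32851 promoters and in 15.9% of 63 promoters of a replication list. CCAAT was more widely spread, in 73.1% of mitosis, 61.9% of replication and 37.4% of all promoters. A match of letters is a description of the window and shows no binding.

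The score itself was spread without a gap. Of the naïve cells 16 scored 0, and of the pretreated cells 4, and the highest score in either group was 10. High-scoring cells listed 5 to 10 of the 12 genes (median 7) in the naïve group and 6 to 10 (median 7) in the pretreated group. Low-scoring cells listed 0 to 2 (median 0) and 0 to 3 (median 1). At the edges, the last naïve cell taken as high and the first left between both listed 5 genes, with summed values of 15435 and 14077 tags per 10000000, and 19 naïve and 20 pretreated cells had a score equal to one at an edge. The high- and low-scoring cells were cut from this range.

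These values follow from the choice of cells and are given as a description. Birc5 (survivin, a subunit of the chromosomal passenger complex) was listed in 30 of 30 high-scoring and 2 of 30 low-scoring naïve cells, and in 28 of 28 and 3 of 28 pretreated cells. Its level in high-scoring naïve cells ran from 953 over a median of 4335 to 10249 tags per 10000000, and in low-scoring cells from 0 over 0 to 1977, so the ranges overlapped in a few cells. Cdk1, the kinase that starts mitosis, was listed in 27 of 30 against 2 of 30 naïve cells and in 27 of 28 against 7 of 28 pretreated cells. Tyms (thymidylate synthase) was the score gene most often listed, in 67 naïve and 67 pretreated cells, and 10 of 30 and 13 of 28 low-scoring cells listed it. The markers Mki67 and Ccnb1 contributed little: Mki67 was listed near its start in 4 naïve and 3 pretreated cells, and Ccnb1 in 2 and 2. The plot of score genes shows this order.

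**Figure D1:**
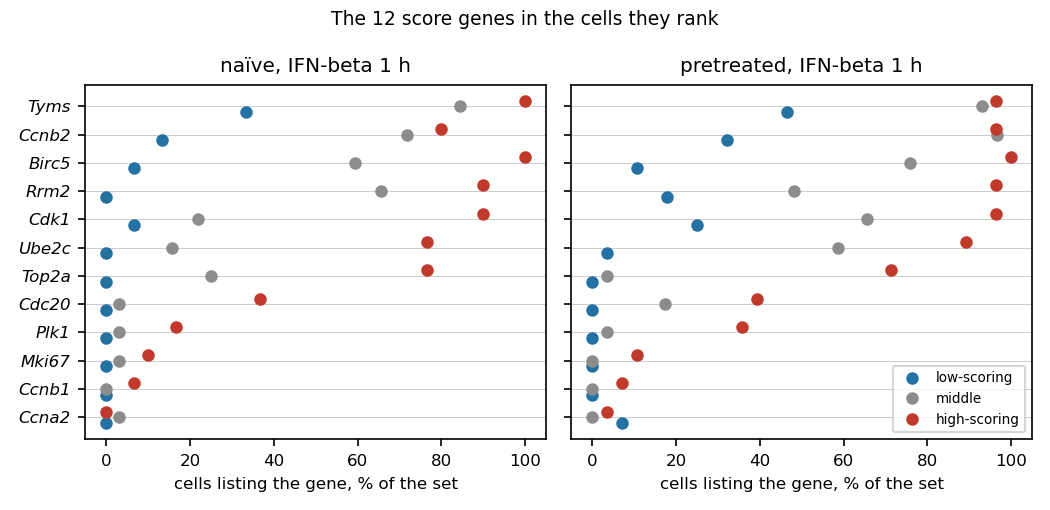
Share of cells (%) listing each of the 12 score genes, for high-scoring (red), middle (grey) and low-scoring (blue) cells of each group; each point is 1 gene in 1 set of cells. Birc5 and Tyms reach 100% of the 30 high-scoring naïve cells, while Mki67, Ccnb1 and Ccna2 are listed in at most 3 cells of any high- or low-scoring set.

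The score genes were also listed in combination, given here as a description. A DNA-synthesis gene (Rrm2 or Tyms) and at least 1 of the other 10 were listed together in 61 of 92 naïve and 63 of 85 pretreated cells, synthesis genes alone in 10 and 7, and the others alone in 5 and 11. Cdc20, which activates the anaphase-promoting complex late in mitosis, was listed without Rrm2 in 1 naïve and 3 pretreated cells. Rrm2 was listed without Cdc20 in 37 and 33. Ube2c, the ubiquitin-conjugating enzyme of the same complex, was listed without Rrm2 in 6 of the 28 naïve and 13 of the 43 pretreated cells that listed it.

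The number of listed peaks differed between the ends of the ranking. High-scoring cells had more listed peaks, with a median of 5550.5 against 4966 in the naïve and 6993 against 6481.5 in the pretreated group, and score and peak number went together across cells (Spearman's rho 0.54 over 92 naïve and 0.43 over 85 pretreated cells, for which no separate cultures are named). Total tags, the depth, went opposite ways in the groups (rho with the score 0.08 and -0.18): medians were 2598160 against 2316424.5 tags in naïve and 2206718 against 2773827 in pretreated cells. There were 5 cells that stood apart, with under 50% of their peak tags near annotated starts: 2 low-scoring and 1 middle naïve cell, and 2 low-scoring pretreated cells, of which the lowest in each group had 10.4% and 12.6%. Without them 40 naïve and 38 pretreated mitosis genes, 37 and 34 replication genes and 26 naïve interferon genes were past the 2-fold threshold used below. The part of peak number in the results below was not tested. Mitosis, replication and interferon counts are also given for cells ranked within 3 bins of peak number, but counts of other lists are not. No share of all genes is given for that ranking. Its median peak numbers were 5141.5 against 5192 in naïve and 6633 against 6597 in pretreated cells. It also split the scores less. Top and bottom naïve cells had scores of 3 to 10 and 0 to 5, and pretreated cells 5 to 10 and 0 to 6. Whether changes within bins came from peak number or from this weaker split was not tested.

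**Figure D2:**
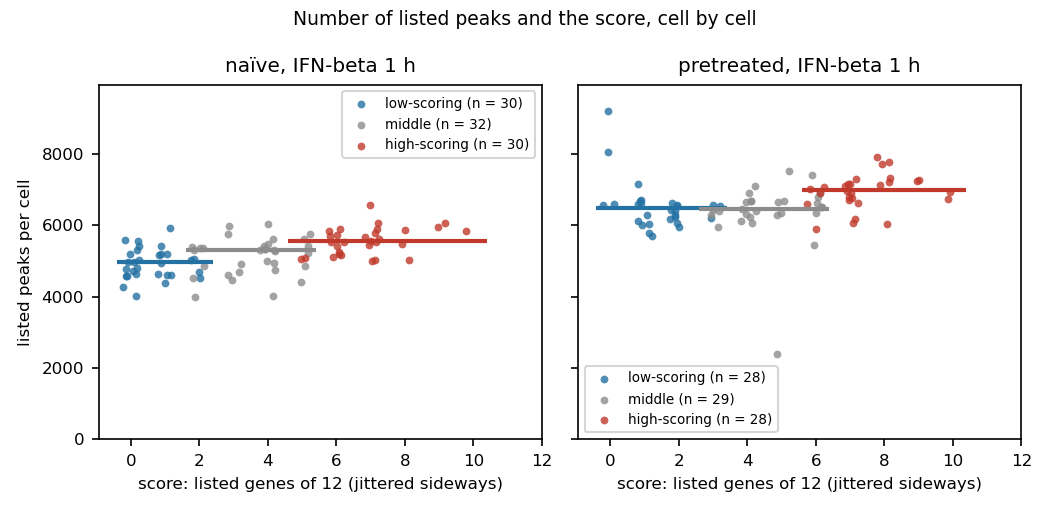
Listed peaks per cell (y) against the score (x, jittered); each point is 1 cell, and lines are medians of the high-scoring (red), middle (grey) and low-scoring (blue) cells. The median rises from 4966 to 5550.5 peaks in naïve cells, and the 2 highest pretreated cells, at 8064 and 9216 peaks, are low-scoring.

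Mitosis genes outside the score were listed in far greater number at the high end. High-scoring naïve cells listed 15 to 48 of the 71 genes (median 29.5) and low-scoring ones 1 to 8 (median 3). In the pretreated group the numbers were 18 to 49 (median 39) and 0 to 11 (median 6). The ends did not overlap in either group: all 30 high-scoring naïve cells and all 28 pretreated ones exceeded the highest low-scoring cell. Across cells, score and number of mitosis genes had a Spearman's rho of 0.91 (n = 92) and 0.93 (n = 85), and 0.91 and 0.92 without the 2 cells farthest from the median score. Together the list took 1.04% of the gene tags in high-scoring against 0.158% in low-scoring naïve cells, and 1.05% against 0.136% in pretreated cells.

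**Figure D3:**
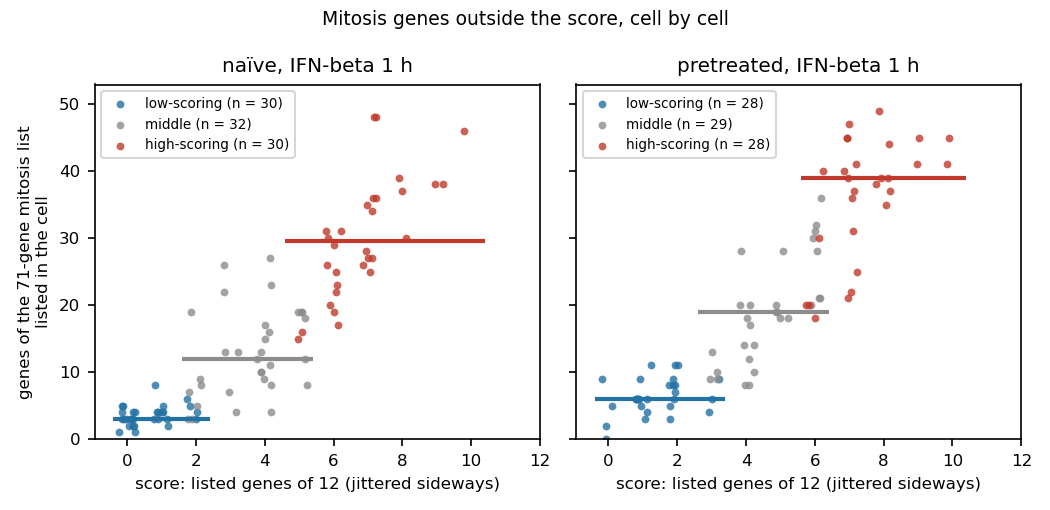
Number of genes of the 71-gene mitosis list, none of them in the score, listed in each cell (y) against the score (x, jittered); points are cells and lines the medians. High-scoring cells list 15 or more of these genes in the naïve and 18 or more in the pretreated group, above every low-scoring cell.

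Gene by gene, 67 of 67 mitosis-list genes with a tag in naïve cells were listed in more high-scoring than low-scoring cells, against 59.1% of all 9034 genes with a tag. In pretreated cells it was 67 of 68, against 50.4% of 10246. A gene was compared for level where it reached 50 tags per 1000000 gene tags (CPM) and 20% of cells at either end, and it was called at 2-fold. Past 2-fold higher were 40 of 40 such mitosis genes in naïve cells, where 19.3% of all genes were, and 38 of 39 in pretreated cells, where 11.2% were. In each group 34 of them reached the minimum only in high-scoring cells and so had to differ. Ranked within bins of peak number, 35 of 36 and 31 of 35 were past 2-fold.

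Among the most abundant, Cks1b, a small subunit that binds CDKs, was listed in nearly every cell at both ends but at different levels. Its values in naïve cells were 2106 to 29723 tags per 10000000 (median 11321) at the high end and 0 to 10875 (median 2875) at the low end, with overlap. Its summed level was 2092 against 795 CPM, a log2 ratio of 1.40 (95% Poisson interval 1.38 to 1.42), and in pretreated cells 1992 against 520 CPM (log2 1.94). Cenpw, a DNA-binding kinetochore protein, was in 30 of 30 against 13 of 30 naïve cells (573 against 147 CPM, log2 1.96) and in 28 of 28 against 19 of 28 pretreated cells (689 against 159 CPM, log2 2.12). Cks2, the paralog of Cks1b, showed a wider gap, in 28 of 30 against 9 of 30 naïve cells with a log2 ratio of 3.54, and in 26 of 28 against 4 of 28 pretreated cells with 4.12. Bub3, a spindle checkpoint protein that was also common at the low end (16 of 30 and 24 of 28 cells), differed least, with log2 ratios of 1.13 and 1.25, which were 0.54 and 0.64 with cells ranked within peak-number bins. The exception among pretreated cells was Pttg1 (securin, the separase inhibitor), named after its values were seen: 24 of 28 high-scoring and 26 of 28 low-scoring cells listed it, at 184 against 145 CPM (log2 0.34), and in naïve cells only 1 of 30 and 0 of 30 listed it.

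DNA replication genes went the same way with more presence at the low end. High-scoring naïve cells listed 13 to 41 of the 71 genes of that list (median 27.5) and low-scoring ones 2 to 21 (median 6), and pretreated cells 12 to 50 (median 35.5) and 1 to 38 (median 11.5). Here the ends overlapped: 25 of 30 high-scoring naïve cells and 11 of 28 pretreated ones lay above the highest low-scoring cell. Of the list's genes with a tag, 61 of 63 were listed in more high-scoring naïve cells, against 59.1% of all genes with a tag. In pretreated cells it was 63 of 67, against 50.4%. Past 2-fold higher were 37 of 40 in naïve and 33 of 43 in pretreated cells, where 19.3% and 11.2% of all genes were, and none was lower. Of those compared, 30 and 28 reached the minimum only in high-scoring cells. With cells ranked within peak-number bins these counts were 18 of 32 and 20 of 36.

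Pclaf, a PCNA-associated factor, stood at 901 against 58.1 CPM in naïve cells (log2 3.96), where it was listed in 30 of 30 against 11 of 30 cells, from 227 to 9226 tags per 10000000 at the high end and from 0 to 1623 at the low end. In pretreated cells it stood at 304 against 43.9 CPM (log2 2.79), listed in 24 of 28 against 2 of 28 cells. Gins2, a subunit of the GINS complex of the replicative helicase, had log2 ratios of 1.53 in naïve and 1.95 in pretreated cells, the latter 0.56 within peak-number bins. A single low-scoring naïve cell held its highest value, 11836 tags per 10000000, above every high-scoring cell, and without each gene's top cell the naïve ratio was 5.74. Rpa3, of the single-strand binding protein RPA, reached 1.41 and 1.12 (the latter 0.84 with each cell weighted equally), and Orc6, of the origin recognition complex, 1.60 and 0.91; within peak-number bins the naïve values of both fell below 2-fold (0.97 and 0.70). The gene of the list farthest in the other direction was Pcna, the sliding clamp of the polymerases: 28 of 30 against 16 of 30 naïve cells listed it with a log2 ratio of 1.62 (0.66 within peak-number bins), but in pretreated cells it was listed in 21 of 28 against 17 of 28 at 119 against 134 CPM, a log2 ratio of -0.18.

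**Figure D4:**
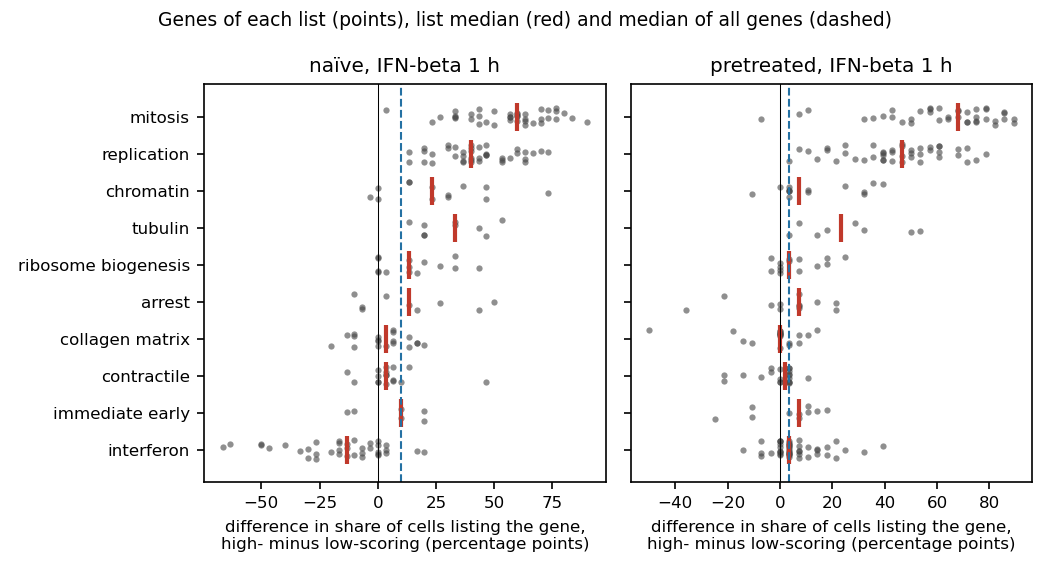
Difference in the share of cells listing a gene, high-scoring minus low-scoring, in percentage points (x), for each compared gene (points) of 10 gene lists (y); red bars are list medians and the dashed line is the median of all compared genes. The mitosis medians are 60 and 67.9 points against 10.0 and 3.57 for all compared genes. The interferon median is -13.3 in naïve and 3.57 in pretreated cells. In each group 34 of the compared mitosis genes reach the minimum level only in high-scoring cells. In naïve cells 16 of the compared interferon genes reach it only in low-scoring cells. The mitosis and naïve interferon medians therefore follow in part from the choice of genes. Over all list genes with a tag, these medians are smaller in size, with the same signs.

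Chromatin and spindle genes showed smaller differences. Of 13 chromatin genes compared in naïve cells 8 were past 2-fold higher, and of 14 in pretreated cells 4, with none lower in either, against 19.3% and 11.2% of all genes higher. Of those compared, 3 and 4 reached the minimum only in high-scoring cells. H2afz, the histone variant H2A.Z, was listed in all 30 cells at both ends of the naïve group, at 18401 to 64077 tags per 10000000 in high-scoring and 983 to 54505 in low-scoring cells, and stood at 7750 against 2668 CPM (log2 1.54). In pretreated cells it stood at 261 against 229 CPM (log2 0.19). Cbx5 (heterochromatin protein 1 alpha) had a log2 ratio of 1.88 in naïve cells, 0.98 within peak-number bins, and 0.96 in pretreated cells. H2afv, a second H2A.Z gene, had 1.17 (0.80 within peak-number bins) and 0.24. Cbx1, another heterochromatin protein, had 1.04 and 0.32, and its naïve ratio was under 2-fold in 7 of 13 alternatives, with 0.73 within peak-number bins. Set, a histone chaperone and the list's gene farthest in the other direction, had -0.34 and 0.66. Of the tubulin and microtubule genes, 4 of 9 were past 2-fold in naïve and 6 of 8 in pretreated cells, against the same shares of all genes, again with none lower. Here 2 and 3 of the compared genes reached the minimum only in high-scoring cells. Tubb6, a beta-tubulin, was at 2062 against 645 CPM in naïve cells (log2 1.68) and 1610 against 325 CPM in pretreated cells (log2 2.31). Tubg1, the gamma-tubulin that nucleates microtubules, had 1.70 and 1.05, while Map4, which stabilises microtubules, had -0.72 in pretreated cells. Tubb5 had 0.96 and 1.82, and Tuba1c, an alpha-tubulin, 1.30 (0.57 within peak-number bins) and 4.47. Read sharing between near-identical copies of H2afz, the tubulins and Cks1b could affect these values, as the handling of multiply mapped reads is not given in the sources used here.

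Arrest genes did not separate the ends in 1 direction, so the cells are called low-scoring here and not resting. Of a 36-gene list of CDK inhibitors, p53 targets and quiescence genes, 10 of the 22 with a tag were listed in more high-scoring and 11 in more low-scoring naïve cells, and 14 and 8 of 26 in pretreated cells. The share listed in more high-scoring cells was 45.5% against 59.1% of all genes in the naïve group, and 53.8% against 50.4% in the pretreated group. Past 2-fold higher in high-scoring cells were 4 of 9 compared in naïve and 2 of 12 in pretreated cells, against 19.3% and 11.2% of all genes. In each group 1 was lower, against 12.7% and 7.88% of all genes, so the pretreated count and both lower counts lay near the shares of all genes. Of the naïve genes compared, 3 reached the minimum only in high-scoring and 1 only in low-scoring cells, and of the pretreated 1 and 3. The 3 naïve genes are among the 4 higher ones, so that count follows in part from the minimum. Cdkn1a, the CDK inhibitor p21 and a p53 target, was listed in 21 of 30 against 6 of 30 naïve cells (418 against 117 CPM, log2 1.84) and in 22 of 28 against 16 of 28 pretreated cells (481 against 170 CPM, log2 1.50); within peak-number bins the ratios were 0.61 and 0.85. Mdm2, which marks p53 for degradation, had 2.38 and 1.97, the first 0.96 with Rrm2 and Tyms left out of the score. Plk2, a kinase induced by p53, had 1.73 and 0.91, and Ccng1 (cyclin G1, also a p53 target) 1.87 and 0.56, the first 0.01 within peak-number bins.

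Cdkn2c, the CDK4 and CDK6 inhibitor p18, was the list's gene that stood lower in high-scoring cells of both groups. It was listed in 7 of 30 against 10 of 30 naïve cells at 16.3 against 81.5 CPM (log2 -2.32), and in 3 of 28 against 13 of 28 pretreated cells at 8.55 against 52.9 CPM (log2 -2.63). In both groups the ranges overlapped, with 0 as the median at both ends. Of the G1 cyclins and their kinases, 1 of 5 in naïve cells was past 2-fold higher, Ccnd1 (cyclin D1, log2 1.41, and 0.53 over all its windows), and 1 lower, Cdk7 (log2 -1.01, under 2-fold in 6 of 12 alternatives), while 0 of 7 in pretreated cells passed 2-fold in either direction. Over all genes 19.3% were higher and 12.7% lower in naïve cells, and 11.2% and 7.88% in pretreated cells. With so few genes these counts lay near those shares.

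Ribosome production genes differed in the naïve group: 7 of 14 compared were past 2-fold higher there and 0 of 14 in the pretreated group, with none lower in either, against 19.3% and 11.2% of all genes higher. Of the 14 naïve genes, 5 reached the minimum only in high-scoring cells. Whether the 2 groups differ was not tested. Ncl (nucleolin) was listed in all cells at both ends of both groups, at 1749 against 737 CPM in naïve cells (log2 1.25, and 0.49 with each cell weighted equally) and 983 against 583 CPM in pretreated cells (log2 0.75). Nhp2, of the box H/ACA particles that modify ribosomal RNA, had log2 ratios of 1.81 and 0.74, and Nolc1, a nucleolar chaperone, 2.07 and 0.65. Dkc1 (dyskerin, the pseudouridine synthase of the same particles) had 1.28 (0.75 with the top and bottom 1 in 4 cells) and -0.45.

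Interferon-responsive genes stood lower in the high-scoring naïve cells and not in the high-scoring pretreated cells. The list holds 70 genes, and 62 had a tag in naïve cells, and 47 of these were listed in more low-scoring and 8 in more high-scoring cells, although high-scoring cells listed more genes in all (median 2215 against 1803). Past 2-fold lower were 26 of 37 compared, where 12.7% of all genes were, and none was higher. The median log2 ratio was -1.82, against 0.07 for all compared genes. Among pretreated cells 0 of 47 were past 2-fold lower, where 7.88% of all genes were. In those cells 5 were higher, where 11.2% of all genes were, and the median log2 ratio was 0.13. The difference between the groups was not tested. Of the 37 compared naïve genes, 16 reached the minimum only in low-scoring cells. Within peak-number bins 21 of 37 were past 2-fold lower, with 1 higher, in naïve cells, and 2 of 46 lower, with 4 higher, in pretreated cells.

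Cell by cell, interferon-list genes took 0.931% to 5.85% (median 2.16%) of the gene tags of high-scoring naïve cells, 1.01% to 6.59% (median 2.90%) in the middle and 2.06% to 8.24% (median 3.81%) in low-scoring cells. The ends overlapped, but 29 of 30 high-scoring cells lay below the low-scoring median and 13 below the lowest low-scoring cell. In pretreated cells the medians were 5.01%, 4.62% and 4.96%, and 13 of 28 high-scoring cells lay below the low-scoring median. Across cells the score and this share had a Spearman's rho of -0.59 over 92 naïve cells (-0.57 without the 2 cells farthest from the median score) and 0.02 over 85 pretreated cells. High-scoring naïve cells listed a median of 17.5 interferon genes and low-scoring ones 25.

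**Figure D5:**
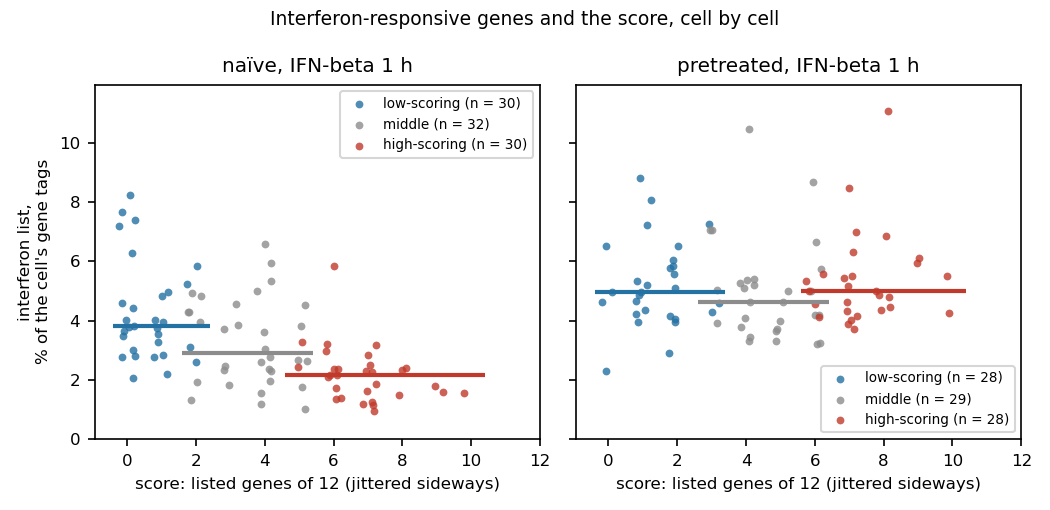
Share of a cell's gene tags in 70 interferon-responsive genes (y, %) against the score (x, jittered); points are cells and lines are medians of high-scoring (red), middle (grey) and low-scoring (blue) cells. The medians go from 3.81% over 2.90% to 2.16% in naïve cells and stay between 4.62% and 5.01% in pretreated cells.

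Ifit1, which binds viral RNA that lacks host cap marks, showed this in full. Of the high-scoring naïve cells 15 of 30 listed it, at 0 to 11709 tags per 10000000 (median 130), and of the low-scoring ones 29 of 30, at 0 to 37960 (median 9081). Its level was 176 against 2308 CPM (log2 -3.71, Poisson interval -3.75 to -3.68). In pretreated cells it was listed in 28 of 28 and 27 of 28 at 1544 against 1897 CPM (log2 -0.30). Ifit3, its neighbour in the gene family, named here for its promoter and with its values known, was listed in 2 of 30 against 21 of 30 naïve cells (19.5 against 829 CPM) and in all 28 cells at both ends of the pretreated group. Both promoters carry the core of the interferon-stimulated response element, to which the ISGF3 complex binds, searched as 2 copies of GAAA with any 2 bases between them. They are printed from RefSeq on GRCm38.p6, Ifit1 chr19:34640769-34640898 (+ strand) and Ifit3 chr19:34583369-34583538 (+ strand), with these letters, read on the other strand, in capitals.
Ifit1: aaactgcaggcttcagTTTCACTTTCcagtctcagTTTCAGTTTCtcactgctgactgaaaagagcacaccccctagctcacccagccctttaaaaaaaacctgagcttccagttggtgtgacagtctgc
Ifit3: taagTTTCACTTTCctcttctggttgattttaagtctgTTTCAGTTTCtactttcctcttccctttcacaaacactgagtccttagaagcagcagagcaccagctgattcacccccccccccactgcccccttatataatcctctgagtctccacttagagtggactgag
This core on either strand was in 42.4% of 66 interferon-list promoters, in 3.44% of all promoters and in 5.97% of mitosis promoters. None of the 11 score-gene promoters held it, and TTTGAA was in 16.7% of the interferon-list promoters.

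Usp18, a protease that removes ISG15 and damps interferon signalling, was listed in 21 of 30 against 30 of 30 naïve cells at 268 against 1243 CPM (log2 -2.21), and in pretreated cells stood at 1805 against 1818 CPM (log2 -0.01). Ifitm2, a membrane protein that blocks virus entry, was listed in all 30 cells at both ends of the naïve group and stood at 1572 against 3450 CPM (log2 -1.13, and -0.55 within peak-number bins). In pretreated cells it was also lower at the high end, under 2-fold, at 87.6 against 124 CPM (log2 -0.50). Lgals9 (galectin-9) had a log2 ratio of -1.82 in naïve cells, -0.35 within peak-number bins, and 0.09 in pretreated cells. The gene of the list farthest in the other direction was Oasl1, an inhibitor of Irf7 translation, at 79.5 against 7.20 CPM in pretreated cells (log2 3.46, and 0.95 over all its windows), listed in 7 of 28 and 2 of 28. It was listed in 1 of 30 and 0 of 30 naïve cells.

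Matrix and contractile genes mostly stayed under 2-fold. Of 19 collagen and matrix genes compared, 4 in naïve and 2 in pretreated cells were past 2-fold lower in high-scoring cells, and 1 and 0 higher. Over all genes 12.7% and 7.88% were lower, and 19.3% and 11.2% higher, so the pretreated count of lower genes lay near its share. Of those compared, 4 naïve and 2 pretreated genes reached the minimum only in low-scoring cells, and 1 naïve gene only in high-scoring cells. Col6a2, a chain of collagen VI, was lower in both groups: 5 of 30 against 11 of 30 naïve cells listed it at 9.37 against 55.1 CPM (log2 -2.55, and -0.80 over all its windows), and 6 of 28 against 20 of 28 pretreated cells with a log2 ratio of -2.52. Col1a2, a chain of collagen I, had log2 ratios of -1.64 (-0.27 with GENCODE starts) and 0.48, the proteoglycan Bgn -1.07 (-0.18 within peak-number bins) and -0.26, and the gelatinase Mmp2 -1.08 (-0.73 without its top cell) and 0.55. Fbln5, of elastic fibres, stood higher in naïve cells (log2 1.83, and 0.88 over all its windows) and at 0.11 in pretreated cells. Of the contractile genes, 2 of 17 in naïve and 2 of 20 in pretreated cells were past 2-fold lower, near the 12.7% and 7.88% of all genes, and none higher. Vcl (vinculin, of focal adhesions) had log2 ratios of -1.08 (-0.80 with Rrm2 and Tyms left out of the score) and -0.41, and Csrp1 -1.14 (-0.52 with each cell weighted equally) and 0.40. Cnn1 (calponin) had 0.52 and -1.20, the latter -0.81 with cells ranked by summed tags. Zyx (zyxin, of focal adhesions) had -1.05 in pretreated cells, and -0.44 over all its windows and -0.47 with each cell weighted equally. Of the immediate early genes, which growth signals switch on at once, 3 of 6 in naïve and 1 of 10 in pretreated cells were past 2-fold lower, against those same shares. Higher were 1 and 2, against 19.3% and 11.2% of all genes. Among them Fos was at 123 against 348 CPM in naïve cells (log2 -1.50, and -0.75 within peak-number bins) and 190 against 281 CPM in pretreated cells (log2 -0.56), and Fosl1 was at 111 against 11.3 CPM (log2 3.30, and 0.65 within peak-number bins) in naïve cells. Zfp36, which destabilises mRNA, had -1.75 (-0.97 over all its windows) and 0.15, Jun -1.01 (under 2-fold in 5 of 13 alternatives) and 0.36, and Dusp6, an ERK phosphatase, -1.94 in pretreated cells. The 2 higher genes in pretreated cells were Junb (log2 1.60) and Dusp1 (log2 1.25). Both were named after their values were seen and were not taken through the alternatives.

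Both ends listed fibroblast markers. Of 15 such markers 12 had a tag in naïve and 11 in pretreated cells, and 6 in each group reached the minimum level. Vim (vimentin) was listed in all 30 cells at both ends of the naïve group and in 28 of 28 and 27 of 28 pretreated cells, and Col1a1 in 29 and 27 of 30 and in 28 and 27 of 28. Col1a2 was in fewer, 15 and 18 of 30 naïve and 21 and 19 of 28 pretreated cells. Of 6 fibroblast markers compared in each group, S100a4 was past 2-fold higher and Col1a2 past 2-fold lower in naïve cells (log2 1.14 and -1.64), and none passed in pretreated cells. The S100a4 ratio was 0.00 over all its windows and -0.03 with GENCODE starts. None of the 10 macrophage, 8 endothelial, 8 epithelial or 9 muscle and neural markers reached the minimum level. Epithelial markers were at 0 at both ends of both groups. In no set did the summed macrophage markers exceed 0.00307% of gene tags, endothelial markers 0.00122% or muscle and neural markers 0.00259%.

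Over all 2407 genes compared in both groups and not in the score, 146 (6.07%) were past 2-fold higher in high-scoring cells of both, and 30 (1.25%) lower. In the single groups 19.3% (naïve) and 11.2% (pretreated) of compared genes were higher, and 12.7% and 7.88% lower. Whether either count exceeds what unrelated calls in the 2 groups would share was not tested, and the lower count is small. Many genes reached the minimum level at 1 end only. With score genes included, these were 534 at the high and 330 at the low end in naïve cells, and 430 and 379 in pretreated cells. How many of the 146 and the 30 did so was not counted. The 146 hold 35 mitosis, 27 replication, 2 chromatin, 3 tubulin and 2 arrest genes of the lists, and 77 genes in none of them. The 10 of these 77 with the widest difference in the share of cells were Cenpq and Cenpu of the inner kinetochore, Haus8 of the augmin complex that branches spindle microtubules, Ncapd3 of condensin II, Esco2, which acetylates cohesin, and Nup85, a nuclear pore subunit that also sits at kinetochores. The others were Rad18, a ubiquitin ligase of post-replication repair, Shcbp1, Gemin6 of the SMN complex and the nucleotide hydrolase Dnph1. Shcbp1, Cenpq and Esco2 were listed at 0 in the low-scoring cells of both groups. Shcbp1 was listed in 21 of 30 naïve and 26 of 28 pretreated high-scoring cells, Esco2 in 15 of 30 and 19 of 28. Rad18 was listed in 26 of 30 against 2 of 30 naïve cells (log2 3.44) and 21 of 28 against 3 of 28 pretreated cells (log2 1.67, and 0.50 within peak-number bins). The Ncapd3 ratio of 3.77 in naïve cells turned to -0.53 within peak-number bins, and in pretreated cells it was 2.27.

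The 30 lower genes hold Cdkn2c and Col6a2 and 28 genes in no list, so no list marks the low end of both groups as mitosis genes mark the high end. The 10 with the widest difference were Smim14, Apool, Cd82, Slc38a2, Fbxo25, Ttc3, Sec23a, Tmem53, Igsf10 and Mospd3. Smim14, a small membrane protein, was listed in 8 of 30 against 18 of 30 naïve cells at 38.2 against 131 CPM (log2 -1.77) and in 19 of 28 against 25 of 28 pretreated cells at 93.1 against 257 CPM (log2 -1.46, and -0.95 within peak-number bins). Sec23a, of the COPII coat that carries cargo out of the endoplasmic reticulum, had log2 ratios of -2.14 (-0.71 within peak-number bins) and -1.18. Ttc3 had -1.15 (-0.62 with GENCODE starts) and -1.82 (-0.59 within peak-number bins, -0.60 with cells ranked by summed tags). Mospd3 had -2.11 and -2.03, which over all its windows were -0.75 and -0.42. Tmem53 had -1.97 and -2.30, and Igsf10 -1.01 (-0.67 with each cell weighted equally) and -2.64. Cd82, a tetraspanin, was listed in 1 of 30 against 9 of 30 naïve cells, and in 13 of 28 against 18 of 28 pretreated cells (log2 -1.15, and -0.75 without the cells that stood apart). Direction turned for Apool in pretreated cells and Slc38a2 in naïve cells within peak-number bins (log2 0.13 and 0.31), and for Fbxo25 in naïve cells with GENCODE starts (log2 0.76). In all, of 95 ratios of named genes past 2-fold, 44 stayed past it under every alternative tried, and 26 fell under it within peak-number bins.

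Start windows are given on build mm9 for 3 score genes and Ifit1, within the 1000 bp that the ranking used. Other score genes had more tags outside that distance: Mki67 had 313 tags near its start and 9781 beyond in naïve cells, and Ccna2 54 and 4250 in naïve and 267 and 8154 in pretreated cells. The leading window of Cdk1, chr10:68815587-68815736 on the - strand and -1 bp from the annotated start, held 42.3% of the gene's near-start tags in naïve and 77.9% in pretreated cells. That of Top2a, chr11:98885429-98885578 on the - strand at 0 bp, held 91.5% in naïve cells (10085 of 11020 tags, 24 of 31 listing cells). In pretreated cells it was the same window with 35.5% of 4785 tags. Birc5 was more dispersed: its leading window, chr11:117710557-117710706 on the + strand and 80 bp downstream, held 28.6% and 27.7% over 20 and 15 windows. The leading Ifit1 window, chr19:34715304-34715453 on the + strand at -1 bp, held 97.1% and 98.4%.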

How the data were processed

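Transcription start sites were read in 192 single cells, 96 naïve and 96 pretreated. The authors deposited peak lists per cell, with signal values as tags normalized to 10000000 per cell; per the file headers, peaks were called with HOMER at a width of 150 bp, a minimum of 200 tags and 2-fold over the local 10000 bp. Bowtie2, HOMER and build mm9 are named in the submitters' processing notes. Raw tags per peak were recovered from each header's total and matched the tags in peaks that the headers state (426263116).

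Tags were summed per gene over peaks on the gene's strand within 1000 bp of its RefSeq start, and per set of cells as tags per 1000000 gene tags (CPM). Log2 ratios had 0.5 tag added. Genes with at least 50 CPM and 20% of cells at either end were compared and called at 2-fold. No p-value was computed, since no separate cultures are named. Shares have exact binomial and tag sums Poisson 95% intervals, which cover counting error only. A tag is a read, not a molecule. The code was tested on simulated data. From each list up to 4 genes were named by mean CPM among those past 2-fold in the list's main direction, with the gene farthest the other way; outside the lists, the 10 higher and 10 lower genes in both groups with the widest difference in cells. The members and lists were chosen with earlier results of these data known. No doublet caller was run. The 384 unnamed per-cell columns of the series table were not used. Python 3.11.15, numpy 2.4.6, pandas 2.3.3, scipy 1.17.1 and matplotlib 3.10.9 were used.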

Additional observations from a re-analysis of the deposited data

Results flagged for a closer look

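Several score genes had peaks that the ranking did not use, more than 1000 bp from the annotated start. Mki67 had them in 34 naïve cells, 23 of 30 high-scoring and 0 of 30 low-scoring, with 97.9% of the tags in exons, and in 9 of 28 high-scoring and 0 of 28 low-scoring pretreated cells. Top2a had them in 18 of 30 high-scoring and 1 of 30 low-scoring naïve cells, Cdk1 in 18 of 28 and 6 of 28 pretreated cells, and Ccna2 (cyclin A2) in 12 of 30 and 1 of 30 naïve and 22 of 28 and 1 of 28 pretreated cells.

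Some log2 ratios of high- over low-scoring cells pointed opposite ways in the groups, and these differences were not tested. The median of the interferon list was lower in naïve than in pretreated cells by a log2 difference of -1.94. The naïve minus pretreated difference was 1.80 for Pcna, 1.73 for Dkc1, 1.72 for Cnn1 and 2.07 for S100a4. It was -1.91 for Lgals9, -2.12 for Col1a2, -1.63 for Mmp2, -1.54 for Csrp1, -1.37 for Jun and -1.90 for Zfp36.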

How the results depend on the processing

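Of 104 alternative counts of genes past 2-fold, 86 stayed within 1.5 times the reported count and 18 did not. With a minimum of 200 CPM, 30 genes were higher and 3 lower in both groups, 14 naïve and 16 pretreated mitosis genes and 12 and 9 replication genes were higher, and 13 naïve interferon genes were lower; fewer genes were compared. With no CPM minimum, 255 were higher and 52 lower in both groups. Ranking within peak-number bins left 18 naïve and 20 pretreated replication genes. The count lower in both groups was 54 with the top and bottom 1 in 4 cells and 17 with each gene's highest cell left out. Against 0 as reported, pretreated interferon genes lower by 2-fold numbered 2 with no CPM minimum, 2 within peak-number bins, 2 with GENCODE starts, 1 with the top and bottom 1 in 4 cells and 1 with each cell weighted equally. Direction turned for Ncapd3 (naïve, -0.53), Apool (pretreated, 0.13) and Slc38a2 (naïve, 0.31) within peak-number bins, for S100a4 (naïve) over all windows (-0.0025) and with GENCODE starts (-0.0332), and for Fbxo25 (naïve, 0.76) with GENCODE starts. The cause was not tested. Leaving out the 5 cells that stood apart was chosen after seeing the data. No paired analysis was possible because the cell numbers in the labels only name cells and there are no replicate cultures. Thinned to 552721 gene tags per cell, 26 high- and 24 low-scoring naïve cells and 27 and 27 pretreated cells were left. Over the genes compared before thinning, the median difference in cells listing a gene was 59.8 and 66.7 points for mitosis genes. For interferon genes it was -14.4 and 0.0, against 8.33 and 0.0 for all genes. In each group 34 of these mitosis genes had reached the minimum only in high-scoring cells. Of the naïve interferon genes 16 had reached it only in low-scoring cells. The mitosis and naïve interferon medians therefore follow in part from the choice of genes.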
